A study of Homo sapiens with 12 samples.

Results

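The insulin-like growth factor (IGF) axis was followed across the arrays of this series through 10 genes: the ligand IGF2, the receptors IGF1R and IGF2R, the binding proteins IGFBP2, IGFBP3, IGFBP4, IGFBP5 and IGFBP6, and the receptor substrates IRS1 and IRS2. Members were the probe sets whose only gene symbol in the array annotation is 1 of these 10, a choice made by name and not by signal. They were 9 of the 11963 genes with a symbol of their own on the array, read by 18 of 22215 probe sets that are not controls. Of the 18, 13 passed a filter on low signal and were tested among 13329 probe sets. IGF2 had no probe set of its own, since the 3 that read it also carry the symbol of the INS-IGF2 readthrough gene.

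IGF2 is a growth factor that binds IGF1R, a receptor tyrosine kinase, and the adaptors IRS1 and IRS2 couple that receptor to the PI3K, AKT and mTOR kinases. IGF2R takes IGF2 up for degradation without such signalling, and the IGFBPs are secreted proteins that bind the ligands and set how much reaches the receptor. IGF2 is an imprinted gene known for high expression in rhabdomyosarcoma, a childhood tumour with features of skeletal muscle precursors, and IGFBP5 is a binding protein known for its part in muscle differentiation.

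The cells were RD, a line from the embryonal form of the tumour, grown in medium with serum. They had been transduced either with PAX3-FKHR-ER or with pK1, the vector alone. PAX3-FKHR-ER joins PAX3-FKHR, the fusion transcription factor of the alveolar form, to a ligand-binding domain of the estrogen receptor, modified, and 4-hydroxytamoxifen (4-OHT), which binds that domain, was given at 30 nM for 24 h or left out. The 4 groups of 3 Affymetrix U133A arrays were thus PAX3-FKHR-ER with 4-OHT, PAX3-FKHR-ER without 4-OHT, pK1 with 4-OHT and pK1 without 4-OHT. All 12 arrays come from a single parental line, the design text speaks of 3 populations per construct, and the labels do not say whether a replicate number marks a population. If it does not, the p-values below measure only the spread between these samples, which may be technical. Values are MAS5 signals, a linear intensity per probe set in which probes differ in brightness, so levels are compared between arrays and never between probe sets.

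The replicate 1 arrays stood apart from the others. Median signals of 24 poly-A spike-in probe sets were 2.58 to 7.41 on the 4 replicate 1 arrays and 118 to 291 on the other 8. Pearson r of log2 signals was 0.815 to 0.869 between replicate 1 and the rest. It was 0.957 to 0.982 among the replicate 1 arrays and 0.867 to 0.982 among those of replicates 2 and 3, so the ranges touch. The construct labels were checked with FOXO1 (FKHR), PAX3 and ESR1, the estrogen receptor gene. Without 4-OHT, the brightest FOXO1 probe set read 142, 146 and 124 under the PAX3-FKHR-ER label in replicates 1, 2 and 3, and 214, 52.1 and 36.1 under the pK1 label. The brightest PAX3 probe set read 17.6, 98.9 and 105 under the PAX3-FKHR-ER label and 49.4, 41.5 and 30.6 under the pK1 label. With 4-OHT, FOXO1 read 138, 78.3 and 83.9 under PAX3-FKHR-ER and 121, 42.4 and 46.0 under pK1, and PAX3 read 58.9, 92.7 and 73.1 under PAX3-FKHR-ER and 41.5 to 57.8 under pK1, where replicate 1 was the highest. By these probe sets replicate 1 went against its labels without 4-OHT and was nearly level with 4-OHT, and replicates 2 and 3 followed theirs. The other tested FOXO1 probe set ran the other way, at 313, 59.9 and 19.7 under PAX3-FKHR-ER and 198, 61.5 and 48.4 under pK1 without 4-OHT, and at 257, 3.71 and 16.4 under PAX3-FKHR-ER and 69.5, 56.4 and 36.6 under pK1 with it. The dimmest tested ESR1 probe set read 44.7, 58.6 and 39.2 under PAX3-FKHR-ER and 58.4, 5.05 and 5.78 under pK1 with 4-OHT. Without 4-OHT it read 7.50, 121 and 76.2 under PAX3-FKHR-ER and 57.0, 4.16 and 12.7 under pK1. By it replicate 1 went against its labels in both treatments, and replicates 2 and 3 followed theirs. The other tested ESR1 probe sets were mixed: replicate 2 followed its labels, and replicate 3 without 4-OHT did not. The probe sets do not settle the labels. Group names are thus those of the labels throughout, and results are given with and without replicate 1. Of 8 skeletal muscle markers, 6 passed the filter, while 0 of 5 epithelial markers, 1 of 4 endothelial, 2 of 5 blood cell and 3 of 5 fibroblast markers did. Of all 11963 genes with a symbol of their own, 8124 passed it, and these counts do not test cell identity.

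Promoter windows are shown for the 4 genes whose probe sets carry the results below: IGFBP3, the member with the largest 4-OHT change in PAX3-FKHR-ER cells of replicates 2 and 3, and IGF1R, IRS1 and IGFBP6, whose tested probe sets lay on a constant side of pK1 at every replicate number. Each runs from 250 bases before to 50 after the RefSeq gene start on GRCh38.p14, on the gene's own strand. Capitals mark a GTCACG, the core of a PAX3 paired-domain site, or a GTAAACA, a forkhead site.
IGFBP3 (chr7:45921223-45921522, minus strand): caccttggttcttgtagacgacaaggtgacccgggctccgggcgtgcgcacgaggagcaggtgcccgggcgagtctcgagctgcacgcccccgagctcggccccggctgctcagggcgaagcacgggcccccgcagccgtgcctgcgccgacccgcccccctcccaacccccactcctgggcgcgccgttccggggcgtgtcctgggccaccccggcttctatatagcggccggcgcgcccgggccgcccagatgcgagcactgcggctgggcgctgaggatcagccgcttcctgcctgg
IGF1R (chr15:98648289-98648588, plus strand): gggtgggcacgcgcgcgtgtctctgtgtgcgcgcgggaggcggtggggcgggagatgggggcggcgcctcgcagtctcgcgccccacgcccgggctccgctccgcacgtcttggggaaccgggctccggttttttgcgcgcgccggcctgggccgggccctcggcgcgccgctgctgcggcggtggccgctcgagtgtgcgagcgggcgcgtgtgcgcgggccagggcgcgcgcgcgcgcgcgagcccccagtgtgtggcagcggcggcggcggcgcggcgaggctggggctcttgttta
IRS1 (chr2:226799771-226800070, minus strand): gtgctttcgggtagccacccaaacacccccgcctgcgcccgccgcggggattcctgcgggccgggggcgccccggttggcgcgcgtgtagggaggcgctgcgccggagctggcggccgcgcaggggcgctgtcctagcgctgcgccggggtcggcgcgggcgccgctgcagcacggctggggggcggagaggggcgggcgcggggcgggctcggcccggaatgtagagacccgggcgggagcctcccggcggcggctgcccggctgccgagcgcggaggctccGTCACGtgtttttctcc
IGFBP6 (chr12:53097417-53097716, plus strand): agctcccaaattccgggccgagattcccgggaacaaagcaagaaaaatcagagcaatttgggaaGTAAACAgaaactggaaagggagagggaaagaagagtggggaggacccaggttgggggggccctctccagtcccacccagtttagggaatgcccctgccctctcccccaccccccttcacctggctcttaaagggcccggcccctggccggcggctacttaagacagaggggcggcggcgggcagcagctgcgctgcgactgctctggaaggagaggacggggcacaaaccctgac

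These motifs, and the homeodomain core ATTA, were searched on both strands. Over all 35116 RefSeq windows of this length, the paired-domain core was present in 9.02%, the forkhead site in 3.42% and the homeodomain core in 50.2%. The IGFBP3 and IGF1R windows held none of the 3. The IRS1 window held 1 GTCACG, and the IGFBP6 window held 1 GTAAACA. Windows of 9 of the 10 members were listed, and the densest was that of IGF2R, with 4 GTCACG matches. These matches describe letters in a window and were not tested as binding sites.

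The largest 4-OHT change among the members was a lower IGFBP3 signal in PAX3-FKHR-ER cells of replicates 2 and 3. IGFBP3 is the main IGF carrier of blood plasma and is known to restrain cell growth. IGFBP3 probe set 210095_s_at read 158, 19.6 and 37.2 in replicates 1, 2 and 3 of PAX3-FKHR-ER cells with 4-OHT, and 171, 76.8 and 99.1 without 4-OHT. In pK1 cells it read 85.9, 51.9 and 169 with 4-OHT and 189, 56.1 and 180 without. The low values with 4-OHT were thus those of replicates 2 and 3 of PAX3-FKHR-ER cells, replicate 1 was nearly level there, and in pK1 cells the clearest difference was that of replicate 1. On the log2(signal + 16) scale, on which every change in this text is given, the changes with 4-OHT were -0.11, -1.38 and -1.11 in PAX3-FKHR-ER cells and -1.01, -0.09 and -0.09 in pK1 cells.

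The second IGFBP3 probe set, 212143_s_at, gave a mixed picture. It read 148, 31.2 and 9.98 in PAX3-FKHR-ER cells with 4-OHT and 118, 41.2 and 45.9 without. In pK1 cells it read 34.7, 14.7 and 79.6 with 4-OHT and 73.8, 12.8 and 90.9 without. The signal was lower with 4-OHT in replicates 2 and 3 of PAX3-FKHR-ER cells, by 0.28 and 1.25 on the log2 scale, but higher in replicate 1. The 2 probe sets correlated at r = 0.83 over the 12 arrays.

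No member passed the test over all 12 arrays. With limma's moderated test and a Benjamini-Hochberg adjusted p under 0.05, 0 of 13 member probe sets were called for 4-OHT in PAX3-FKHR-ER cells, against a background of 0% of all 13329 tested. At an unadjusted p under 0.05 there were 0 members, against 62 probe sets or 0.465% of all tested. IGFBP3 210095_s_at changed by -0.87 ± 0.61 (SE) there, with a 95% interval of -2.20 to 0.47 and an adjusted p of 1. Within each construct the replicate numbers paired the arrays, and a fit with the pair as a block also called 0 of 13 members (background 0%), with 2 members at an unadjusted p under 0.05 beside 6.71% of all tested. In that paired fit IGFBP3 had an unadjusted p of 0.00732 and an adjusted p of 0.633.

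When only replicates 2 and 3 were fitted, with the pair as a block, limma called 1 of 13 member probe sets, against 1.4% of all tested, where 0.795% were higher and 0.6% lower. The call was IGFBP3 210095_s_at, which fell by 1.25 ± 0.20 (SE) on the log2 scale in PAX3-FKHR-ER cells given 4-OHT, with an adjusted p of 0.0228 and n = 2 per group. Its partner 212143_s_at, at -0.77 ± 0.31, had an adjusted p of 0.378. For a 4-OHT change this fit leaves 2 residual degrees of freedom, and the call was lost without the filter on low signal (adjusted p = 0.120), without the intensity trend (0.0724) and without the block (1).

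The same probe set in pK1 cells of replicates 2 and 3 had a change of -0.09 ± 0.20 and an adjusted p of 0.968 by limma. The difference between the constructs in their 4-OHT change was -1.16 ± 0.28, with an adjusted p of 0.223, so the 2 changes were not shown to differ. For that difference limma called 0 of 13 members here, against 0.0525% of all probe sets, and 0 of 13 (background 0%) over 12 arrays without or with the block, where 0 and 0 members had an unadjusted p under 0.05 beside 0.293% and 4.76% of all tested. With 4-OHT, IGFBP3 in replicates 2 and 3 of PAX3-FKHR-ER cells stood at -1.36 ± 0.35 from pK1, with an adjusted p of 0.206. MYOG, a transcription factor of muscle differentiation, also fell in those arrays, by 2.74 (adjusted p = 0.00327), the 1 call among 6 tested muscle markers, whose median change was -0.08. In replicates 1, 2 and 3 of PAX3-FKHR-ER cells MYOG read 53.0, 20.8 and 19.7 with 4-OHT and 13.4, 298 and 172 without. Replicate 1 thus went the other way. MYOD1, which commits cells to muscle, was at 0.58 ± 0.12 in replicates 2 and 3 of PAX3-FKHR-ER cells (limma, adjusted p = 0.0625). With 4-OHT it was higher in replicates 2 and 3 under PAX3-FKHR-ER than under pK1, by 2.80 (limma, adjusted p = 0.0385). That p-value carries the limit given for IGFBP6 below. In replicate 1 with 4-OHT, MYOD1 read 1216 under PAX3-FKHR-ER and 2098 under pK1, the other direction. Without 4-OHT, MYOD1 was also higher under PAX3-FKHR-ER in replicates 2 and 3, at 1380 and 1111 against 222 and 367 under pK1. In replicate 1 it read 1006 and 1112 there. Over 12 arrays limma called 0% of all probe sets in the contrast between constructs with 4-OHT. The summed signal of the 8 muscle markers was 4848 and 4672 in replicates 2 and 3 of PAX3-FKHR-ER cells with 4-OHT and 5485 and 3877 without, and their part in the IGFBP3 change was not tested.

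**Figure D1:**
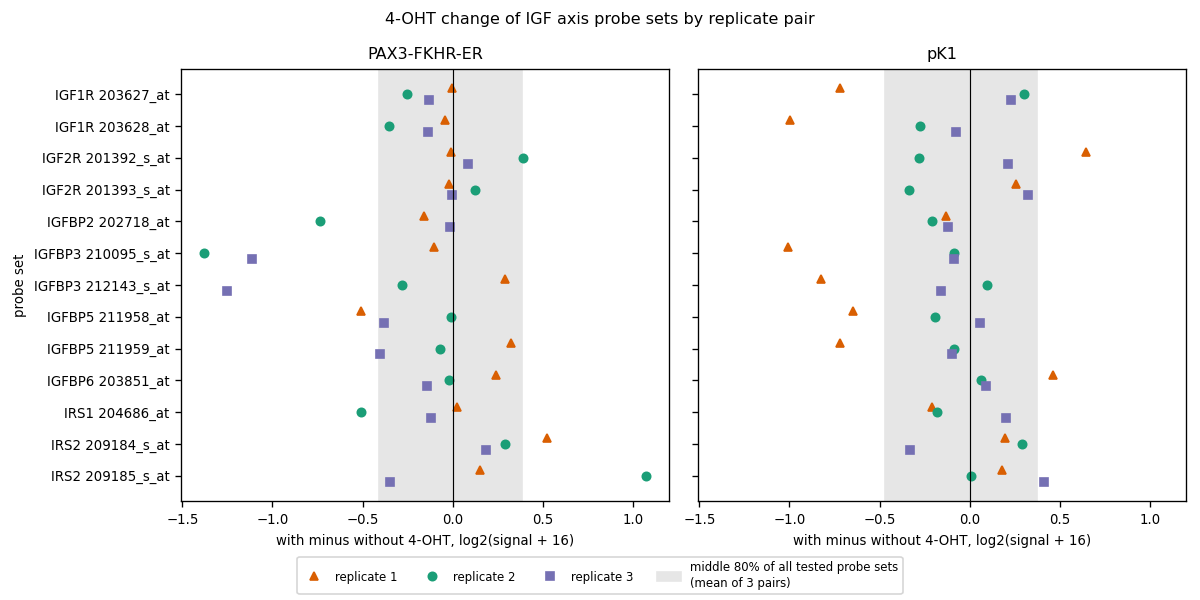
Change with 4-OHT (x axis, with minus without, log2(signal + 16)) of the 13 tested member probe sets (y axis), in PAX3-FKHR-ER cells on the left and pK1 cells on the right, with 1 point per replicate number. The grey band spans the middle 80% of all tested probe sets within a replicate pair, with its limits averaged over the pairs. IGFBP3 210095_s_at lies at -1.38 and -1.11 in PAX3-FKHR-ER replicates 2 and 3 but at -0.11 in replicate 1.

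The other binding proteins moved less with 4-OHT. IGFBP2, which binds IGF2 well and is abundant in fetal tissue, read 2263, 433 and 1655 in PAX3-FKHR-ER cells with 4-OHT and 2525, 731 and 1673 without. In pK1 cells it read 1577, 373 and 1739 with 4-OHT and 1729, 433 and 1891 without. IGFBP2 was lower with 4-OHT in all 6 array pairs, by 0.02 to 0.73 on the log2 scale, and all 4 replicate 2 arrays were the lowest of the 12. Its change in PAX3-FKHR-ER cells was -0.30 ± 0.79 over all 12 arrays by limma, with an adjusted p of 1. With the pair as a block it was -0.30 ± 0.13, with a 95% interval of -0.60 to -0.01, an unadjusted p of 0.0440 and an adjusted p of 0.721.

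IGFBP5 was read by 5 probe sets, of which 2 were tested. Probe set 211958_at read 52.6, 88.7 and 121 in PAX3-FKHR-ER cells with 4-OHT and 81.5, 89.4 and 163 without. In pK1 cells it read 44.1, 69.6 and 169 with 4-OHT and 78.2, 82.0 and 162 without. These groups overlapped throughout, and replicate 3 was the highest of each group. The second tested probe set, 211959_at, read 87.3, 52.5 and 217 in PAX3-FKHR-ER cells with 4-OHT and 66.7, 56.0 and 291 without, and 43.8, 107 and 200 in pK1 cells with 4-OHT and 82.4, 114 and 215 without. Replicate 3 was again the highest. Changes with 4-OHT were -0.30 ± 0.44 and -0.05 ± 0.65 (SE) in PAX3-FKHR-ER cells, and -0.26 ± 0.44 and -0.30 ± 0.65 in pK1 cells. The 3 untested IGFBP5 probe sets read 2.07 to 55.2.

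IGFBP6, which prefers IGF2 to IGF1, read 48.8, 298 and 835 in PAX3-FKHR-ER cells with 4-OHT and 38.8, 302 and 926 without. In pK1 cells IGFBP6 read 101, 375 and 1665 with 4-OHT and 69.0, 359 and 1561 without. The replicates of each group differed far more than the groups did: the highest array was 43.0-fold over the lowest, and the changes with 4-OHT ranged from -0.15 to 0.24 in PAX3-FKHR-ER cells and from 0.06 to 0.46 in pK1 cells. IGFBP4, which blocks IGF action until it is cleaved, lay under the filter at 7.98 to 55.5 and was not tested.

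The receptors showed no change with 4-OHT that passed. IGF1R probe set 203627_at read 426, 166 and 212 in PAX3-FKHR-ER cells with 4-OHT and 427, 201 and 233 without. In pK1 cells it read 185, 136 and 160 with 4-OHT and 315, 107 and 134 without. Replicate 1 was the highest array of every group, and the 4-OHT changes had mixed signs in pK1 cells. IGF1R 203628_at read 114, 73.7 and 98.1 in PAX3-FKHR-ER cells with 4-OHT and 119, 98.6 and 109 without, and 46.5, 56.7 and 74.9 in pK1 cells with 4-OHT and 109, 72.0 and 79.8 without. This probe set was lower with 4-OHT in all 6 pairs, by 0.04 to 1.00. Its pK1 change had an unadjusted p of 0.0409 in the paired fit to all 12 arrays by limma and an adjusted p of 0.711. The third IGF1R probe set, 208441_at, was under the filter at 14.5 to 51.3 and did not follow the others (r = 0.02 and -0.06).

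IGF2R, the receptor that clears IGF2, had changes of both signs. Probe set 201392_s_at read 117, 225 and 245 in PAX3-FKHR-ER cells with 4-OHT and 118, 168 and 231 without, and 135, 94.8 and 207 in pK1 cells with 4-OHT and 80.6, 119 and 177 without. Probe set 201393_s_at read 242 to 425 in PAX3-FKHR-ER cells with 4-OHT, 246 to 426 without, 218 to 373 in pK1 cells with 4-OHT and 279 to 295 without. The 4-OHT changes of IGF2R in PAX3-FKHR-ER cells were 0.15 ± 0.37 and 0.03 ± 0.28 (SE), and neither passed without or with the block.

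The adaptors also did not pass. IRS1 read 170, 116 and 176 in PAX3-FKHR-ER cells with 4-OHT and 167, 172 and 193 without. In pK1 cells IRS1 read 119, 50.9 and 141 with 4-OHT and 141, 59.7 and 120 without. The lowest array of both pK1 groups was replicate 2. IRS2, which like IRS1 links insulin and IGF receptors to PI3K, read 173, 92.3 and 71.2 by probe set 209184_s_at in PAX3-FKHR-ER cells with 4-OHT and 115, 72.6 and 60.7 without. It read 201, 70.0 and 69.1 in pK1 cells with 4-OHT and 174, 54.3 and 91.0 without. IRS2 209184_s_at was the only member higher with 4-OHT in 3 of 3 PAX3-FKHR-ER pairs, by 0.52, 0.29 and 0.19, at a mean of 0.33 ± 0.46 (SE, limma, adjusted p = 1). The other IRS2 probe set, 209185_s_at, read 187, 105 and 44.9 in PAX3-FKHR-ER cells with 4-OHT and 167, 41.6 and 61.3 without, and 189, 77.4 and 72.9 in pK1 cells with 4-OHT and 165, 77.0 and 50.7 without. It was 0.15 and 1.07 higher with 4-OHT in replicates 1 and 2 of PAX3-FKHR-ER cells and 0.35 lower in replicate 3.

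Directions over the pairs were counted, with no test of the counts, since probe sets of a gene share its RNA. In PAX3-FKHR-ER cells 5 of 13 member probe sets were lower with 4-OHT in 3 of 3 pairs, where 14.9% of all tested were, and 1 was higher in 3 of 3, where 13.2% were. In pK1 cells 4 were lower in 3 of 3 pairs (background 16.6%) and 2 were higher (background 12.6%). No member changed in opposite directions in all pairs of the 2 constructs, a pattern that 3.12% of all tested probe sets had. No member had groups with and without 4-OHT that did not overlap over 3 replicates, where 1.7% of all tested were higher and 1.7% lower without overlap in PAX3-FKHR-ER cells, and 0.983% higher and 3.28% lower in pK1 cells. Over replicates 2 and 3 of PAX3-FKHR-ER cells 3 members lay lower without overlap, both IGFBP3 probe sets and IGF1R 203628_at, and 15.6% of all tested did. For 4-OHT in pK1 cells 0 of 13 were called over 12 arrays (background 0%), with 0 members at an unadjusted p under 0.05 beside 0.54% of all tested. With the block, 0 of 13 were called over 12 arrays and 0 of 13 over replicates 2 and 3 (background 0% in both), and 1 member, beside 6.87% of all tested, had an unadjusted p under 0.05 in the 12-array fit.

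**Figure D2:**
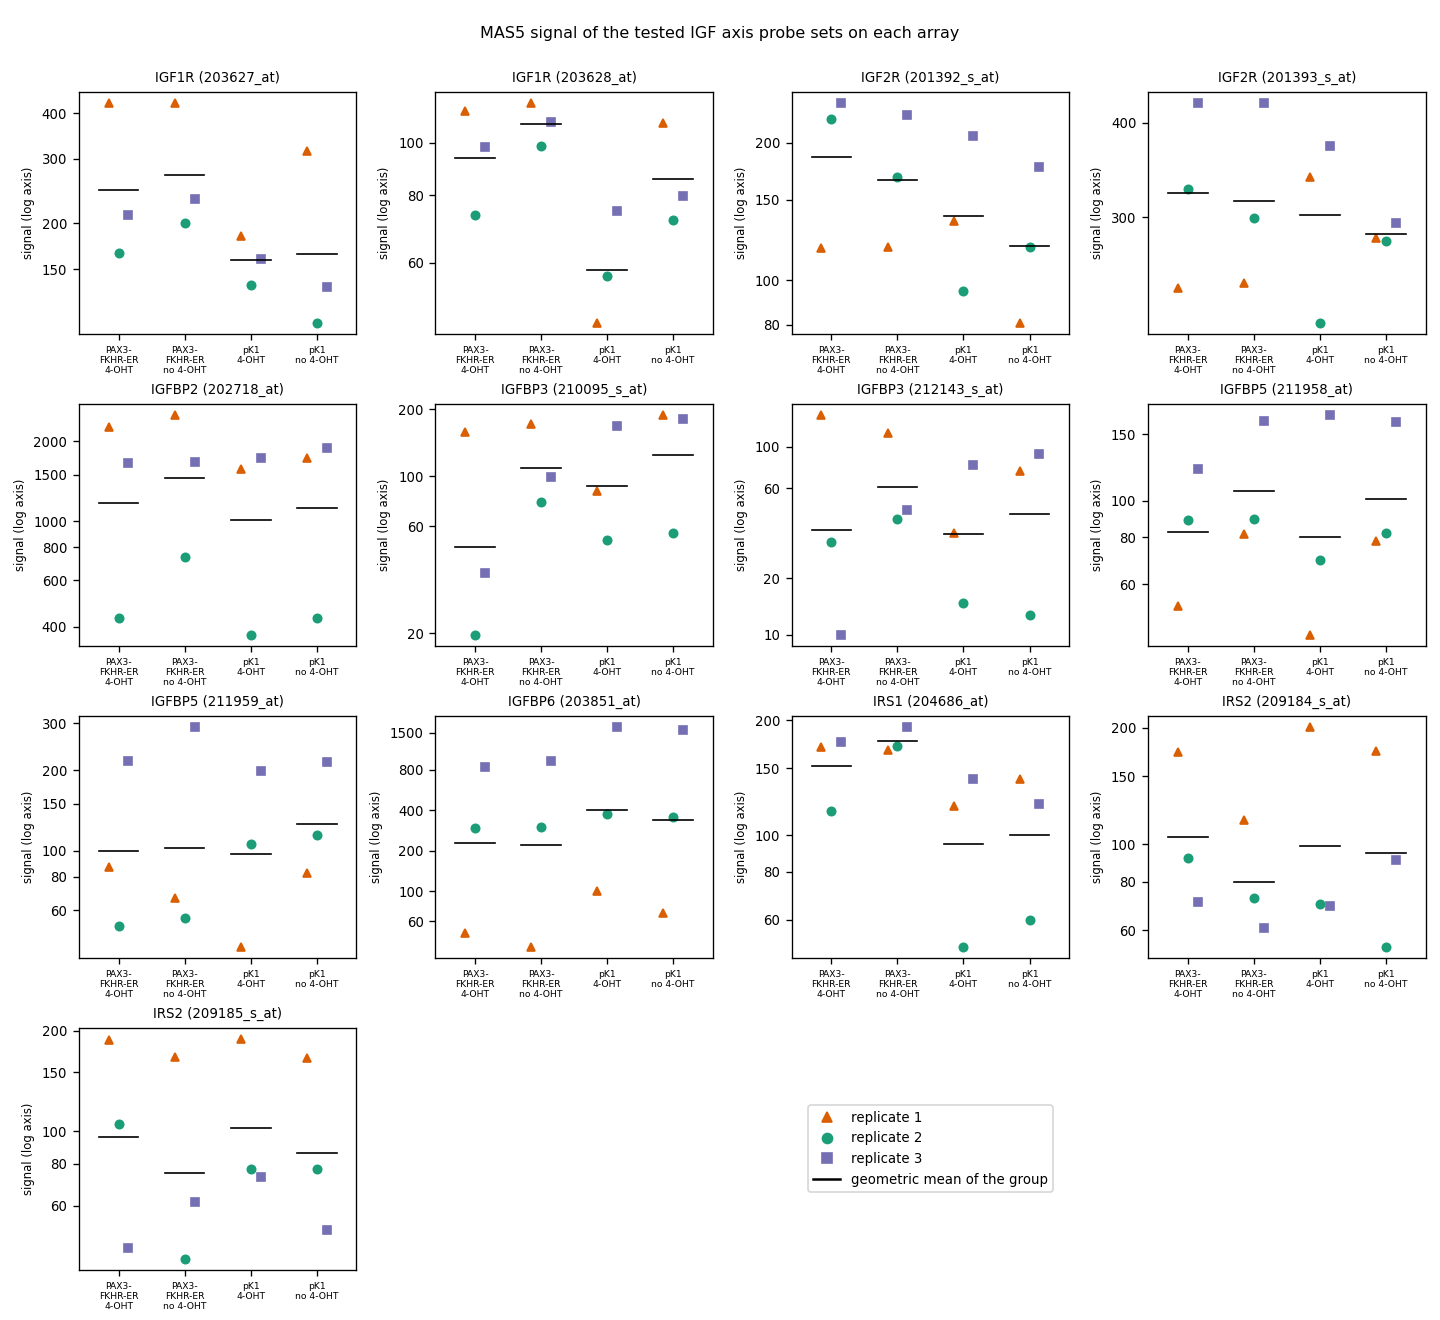
Signal (y axis, log scale) of each tested member probe set on every array, by group (x axis), with a symbol per replicate number and a line at the group's geometric mean. The replicate 1 arrays are the lowest of each group for IGFBP6 (38.8 to 101) and the highest of each group for both IRS2 probe sets.

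The constructs were compared next, within each treatment. The labels carry the same replicate numbers in both constructs. Replicate 1 arrays deviated together across constructs (r = 0.57 with 4-OHT and 0.69 without). Arrays of numbers 2 and 3 were not shown to be paired across constructs (r = 0.15 to 0.46), so differences by number are descriptions. Both tested IGF1R probe sets were higher under the PAX3-FKHR-ER label at every number. For IGF1R 203627_at the differences from pK1 were 1.14, 0.26 and 0.37 with 4-OHT and 0.42, 0.82 and 0.74 without. For IGF1R 203628_at they were 1.06, 0.30 and 0.33 with 4-OHT and 0.11, 0.38 and 0.39 without. The dim IGF1R 208441_at, which was not tested, was at -0.34, -0.71 and 0.03 with 4-OHT and -0.34, 0.33 and 0.42 without. IRS1 was also higher at every number, by 0.46, 0.98 and 0.29 with 4-OHT and by 0.23, 1.31 and 0.61 without. These 3 of 13 probe sets stand beside 3.23% of all tested that were higher in 6 of 6.

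None of these differences passed. With 4-OHT limma called 0 of 13 members and 0% of all probe sets over 12 arrays, with 1 member at an unadjusted p under 0.05 beside 267 probe sets, or 2% of all tested. Without 4-OHT it called 0 of 13 and 0%, with 0 members at that level beside 277 probe sets, or 2.08%. The 1 member was IGF1R 203628_at, higher by 0.56 ± 0.23 (SE) with 4-OHT (unadjusted p = 0.0307), and at 0.29 ± 0.23 without. IGF1R 203627_at differed by 0.59 ± 0.43 with 4-OHT and 0.66 ± 0.43 without, and IRS1 by 0.58 ± 0.35 with and 0.72 ± 0.35 without. IRS1 without 4-OHT was the only member whose groups of 3 did not overlap, at 167 to 193 under PAX3-FKHR-ER against 59.7 to 141 under pK1, where 2.9% of all tested lay higher that way and 3.08% lower. Its 95% interval was -0.05 to 1.49. With 4-OHT, 0 members lay apart, where 3.18% of all tested were higher and 2.12% lower.

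IGFBP6 lay on the other side. It was lower under PAX3-FKHR-ER at every number, by 0.86, 0.32 and 0.98 with 4-OHT and by 0.63, 0.24 and 0.74 without, and 3.34% of all tested probe sets were lower in 6 of 6. By treatment, 3 members were higher at 3 of 3 numbers with 4-OHT (background 12.6%) and 5 without (12.4%), and 1 was lower with (9.88%) and 1 without (13.3%). The fit to 12 arrays gave -0.72 ± 1.38 with 4-OHT and -0.54 ± 1.38 without, since the replicates spread so widely. With the number as a block, IGFBP6 with 4-OHT was at -0.72 ± 0.19, with an unadjusted p of 0.00281 by limma and an adjusted p of 0.704. This fit between constructs counts the arrays with and without 4-OHT of the same construct and number as independent, though they deviated together. Numbers were not shown to pair the constructs either, so its p-values can be too small. That fit called 0 of 13 members in either treatment (background 0%), and 4 members with 4-OHT and 3 without had an unadjusted p under 0.05, against 6.98% and 7.36% of all tested.

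Over replicates 2 and 3 alone, with the block, limma called 0 of 13 members with 4-OHT, against 0.158% of all tested, and 0 of 13 without, against 0.0075%. The p-values of this fit carry the limit given above for the block between constructs. IGF1R 203627_at without 4-OHT was at 0.78 ± 0.19 (adjusted p = 0.351) and IRS1 at 0.96 ± 0.29 (adjusted p = 0.391), both larger than over 12 arrays. With 4-OHT the IGF1R differences were smaller than over 12 arrays, at 0.32 ± 0.19 for 203627_at (adjusted p = 0.527) and 0.32 ± 0.22 for 203628_at (adjusted p = 0.594), and IRS1 was at 0.64 ± 0.29 (adjusted p = 0.420). Skeletal muscle markers moved with the array on which IRS1 was lowest. The summed signal of the 8 markers was 684 and 864 on the pK1 replicate 2 arrays with and without 4-OHT, and 2776 to 5485 on the other 10. Their part in the IRS1 difference was not tested. In bulk RNA fewer cells of a type and less RNA per cell cannot be told apart.

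The remaining members differed between the constructs by less than their spread over replicates. IGF2R 201392_s_at under PAX3-FKHR-ER differed from pK1 by -0.18, 1.12 and 0.23 with 4-OHT and by 0.47, 0.45 and 0.36 without, and limma gave 0.39 ± 0.37 and 0.43 ± 0.37 (SE). It was thus higher at 3 of 3 numbers without 4-OHT and at 2 of 3 with it. IGF2R 201393_s_at was at 0.09 ± 0.28 with 4-OHT and 0.14 ± 0.28 without. IGFBP2 was at 0.22 ± 0.79 with 4-OHT and 0.37 ± 0.79 without, and the IGFBP5 and IRS2 probe sets lay between -0.23 and 0.05 in these 2 contrasts. IGFBP3 turned with the replicate: 210095_s_at differed by 0.77, -0.93 and -1.80 with 4-OHT and by -0.13, 0.37 and -0.77 without, and 212143_s_at by 1.69, 0.62 and -1.88 with 4-OHT and by 0.58, 0.99 and -0.79 without. Replicate 3 alone had both IGFBP3 probe sets lower under PAX3-FKHR-ER in both treatments.

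**Figure D3:**
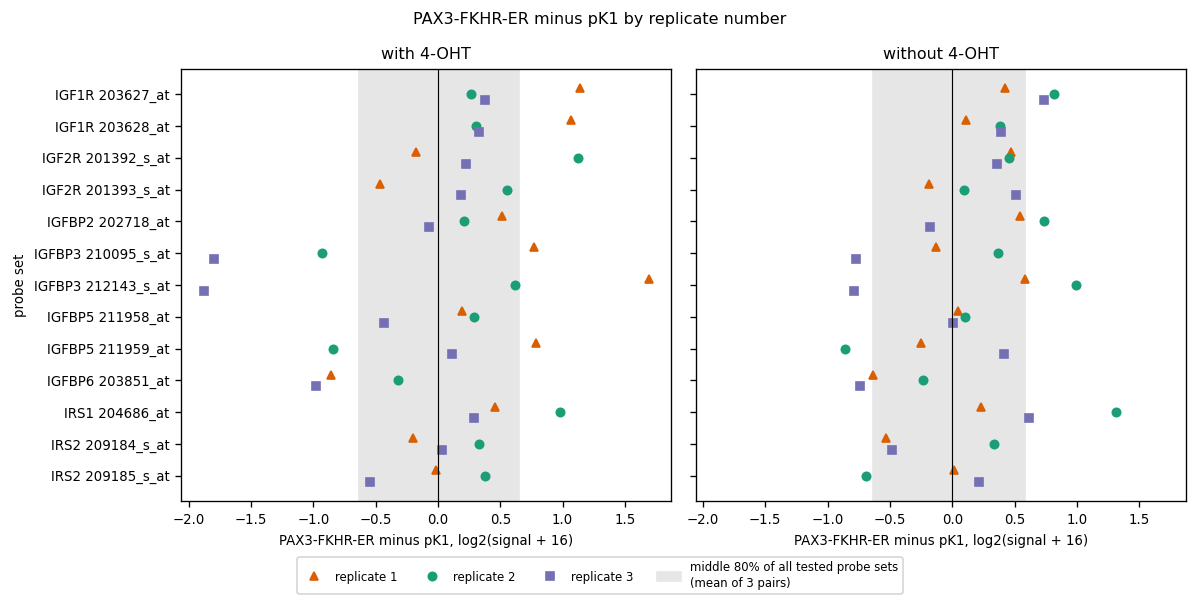
Difference PAX3-FKHR-ER minus pK1 (x axis, log2(signal + 16)) of the 13 tested member probe sets (y axis) by replicate number, with 4-OHT on the left and without on the right. The grey band spans the middle 80% of all tested probe sets at a replicate number, with its limits averaged over the numbers. Both IGF1R probe sets and IRS1 lie right of 0 at every number, IGFBP6 left of it, and IGFBP3 210095_s_at with 4-OHT runs from -1.80 to 0.77.

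The 3 probe sets that carry IGF2 together with INS-IGF2 cannot be read as IGF2 alone and are no members. The brightest, 202409_at, read 6746, 3457 and 3194 in PAX3-FKHR-ER cells with 4-OHT and 6318, 3849 and 3202 without. In pK1 cells it read 6651, 1539 and 3530 with 4-OHT and 6130, 1570 and 3998 without. Replicate 1 was the highest array of every group. All 3 probe sets were lowest on the pK1 replicate 2 arrays, where 202410_x_at read 341 and 207 with and without 4-OHT, against 1164 to 1991 on the other 10 arrays, and 210881_s_at read 220 and 176, against 545 to 1236. Those are also the arrays with the low muscle marker sum given above, and their part in it was not tested.

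Much of the members' variation followed the replicate number. The number accounted for 95.4% of the sum of squares over 12 arrays for IGFBP6, 92.3% for IGFBP2, 82.9% and 81.9% for the IGFBP5 probe sets and 82.2% and 84.7% for those of IRS2, where the median over all tested was 42.5%. For IRS1 it was 39.2%, and for the IGFBP3 probe sets 49.4% and 42.4%. The change with 4-OHT within array pairs accounted for 0.464% for IGFBP6, 6.45% for IRS1 and 27.0% for IGFBP3 210095_s_at, where the median was 18.6%. IRS2 was higher on all 4 replicate 1 arrays than on the other 8 by both probe sets (background 11%), and IGFBP6 was lower (background 10.3%). The spike-in signal, missing on those arrays, moves with these differences, and its part in them was not tested.

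**Figure D4:**
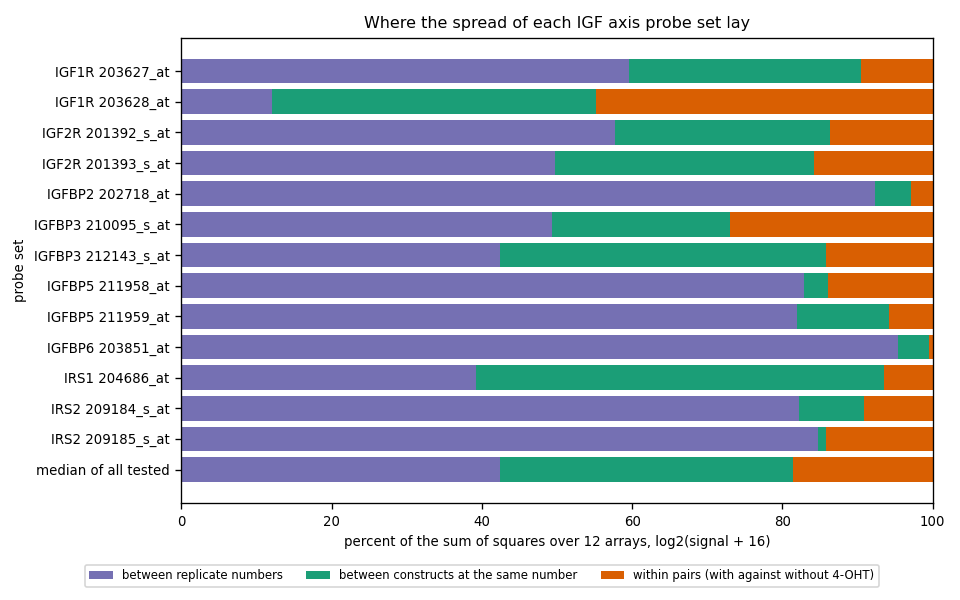
Share of the sum of squares over 12 arrays (x axis, percent, of log2(signal + 16)) of each tested member probe set (y axis) that lay between replicate numbers, between array pairs of a number, and within pairs, with the median over all tested probe sets. The share between replicate numbers is 95.4% for IGFBP6 and 12.1% for IGF1R 203628_at.

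The rest of the pathway was read from lists of genes, each by its brightest probe set, and over 12 arrays limma called 0 genes of any of them for 4-OHT in PAX3-FKHR-ER cells. The list counts that follow are for replicates 2 and 3 with the block. That fit called 186 probe sets of all tested, but 37 without the signal filter, 17 without the intensity trend and 0 without the block. It called 7 for the difference between constructs in their 4-OHT change. Of 20 adaptors and brakes of receptor signalling, 16 were tested, 2 were called higher and 1 lower, at a median change of -0.08, where the median over all 8124 tested genes was -0.03. Of all these genes, each by its brightest probe set, 1.49% were called, 0.8% higher and 0.689% lower, and this is the background for each list here. CAV1, the coat protein of caveolae, read 1.94, 1962 and 2033 in PAX3-FKHR-ER cells with 4-OHT and 3.47, 1069 and 806 without. In pK1 cells CAV1 read 15.4, 307 and 1390 with 4-OHT and 6.35, 328 and 1229 without. CAV1 was thus at 15.4 or less on every replicate 1 array, and in replicates 2 and 3 it rose by 1.09 ± 0.14 (SE) in PAX3-FKHR-ER cells (adjusted p = 0.00956).

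SOCS2, which damps cytokine and growth hormone signalling, read 66.4, 810 and 793 in PAX3-FKHR-ER cells with 4-OHT and 67.7, 349 and 436 without. In pK1 cells SOCS2 read 120, 263 and 148 with 4-OHT and 96.7, 205 and 186 without. It rose by 1.01 ± 0.17 in replicates 2 and 3 of PAX3-FKHR-ER cells (limma, adjusted p = 0.0300), and replicate 1 was level there. GRB10, an imprinted adaptor that inhibits the insulin and IGF1 receptors, read 111, 128 and 230 in PAX3-FKHR-ER cells with 4-OHT and 88.1, 276 and 414 without. In pK1 cells GRB10 read 119, 298 and 538 with 4-OHT and 118, 300 and 476 without. It fell by 0.91 ± 0.13 in replicates 2 and 3 of PAX3-FKHR-ER cells (adjusted p = 0.0163), but its other tested probe sets were at -0.48 and -0.03 and did not pass. The second probe sets of CAV1 and SOCS2 did pass, at 1.31 and 1.22.

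Of 22 genes of the PI3K and AKT arm, 17 were tested and 1 was called higher, at a median of 0.00. It was TRIB3, a stress-induced pseudokinase that binds AKT, at 107, 319 and 312 in PAX3-FKHR-ER cells with 4-OHT and 115, 177 and 135 without. In pK1 cells TRIB3 read 228, 237 and 147 with 4-OHT and 140, 199 and 141 without. The change was 0.96 ± 0.15 in replicates 2 and 3 of PAX3-FKHR-ER cells (limma, adjusted p = 0.0221). Of 17 mTOR arm genes, 14 were tested and 0 were called, at a median of -0.01, and the nearest was DDIT4, a brake on mTOR, at -0.72 (adjusted p = 0.0577), followed by RPS6KB2, a kinase of ribosomal protein S6, at 0.46 (adjusted p = 0.375).

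Of 17 genes in a list of IGF2 mRNA binders and imprinted growth genes, 14 were tested, with PEG10 called higher and GRB10 lower. The list also holds HMGA1, HMGA2 and CTCF, which are of neither kind. PEG10, an imprinted gene of retrotransposon origin, read 1290, 1227 and 1311 in PAX3-FKHR-ER cells with 4-OHT and 1299, 653 and 696 without. In pK1 cells PEG10 read 1666, 119 and 708 with 4-OHT and 1124, 212 and 787 without. Its change in replicates 2 and 3 of PAX3-FKHR-ER cells was 0.90 ± 0.15 (limma, adjusted p = 0.0300), and the pK1 replicate 2 arrays were the lowest, as they were for the IGF2 probe sets. Of 10 IGFBP proteases and their inhibitors, 7 were tested and 0 were called by the brightest probe set. STC1, a secreted inhibitor of the IGFBP protease PAPP-A, was at -0.79 (adjusted p = 0.104), while its 2 dimmer probe sets, looked at after their values were seen, were at -0.86 (adjusted p = 0.216) and -1.74 (adjusted p = 0.0267). By its brightest probe set STC1 was also lower with 4-OHT in every pK1 pair. It read 65.7, 50.9 and 75.3 in pK1 cells with 4-OHT and 174, 79.0 and 89.6 without. HTRA1, a secreted serine protease, was at -0.56 (adjusted p = 0.530). Of 10 other IGF and insulin ligands, receptors and binding proteins, 8 had a probe set of their own, and of those only IRS4, an adaptor, passed the filter. It was not called, at -0.18 (adjusted p = 0.893), and INSR and IGF1 were among the 7 under the filter.

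For the members themselves, 8 genes by their brightest probe set had a median 4-OHT change of -0.21 in replicates 2 and 3 of PAX3-FKHR-ER cells, beside -0.03 over all genes, with 0 called higher and 1 lower beside the 0.8% and 0.689% of all genes given above. Over 12 arrays that median was -0.09, beside -0.02.

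Genes most like IGF1R and IGFBP5 were taken by the Pearson r of log2(signal + 16) over the 12 arrays after each replicate number's mean was taken off, among 8123 other genes. For IGF1R 203627_at these were HIVEP2, SSBP2 and RTEL1, each at r = 0.93, and without taking the means off r was 0.64, 0.65 and 0.71. For IGFBP5 211959_at they were METTL17 at 0.96, PFKL at 0.95 and KANK1 at 0.94, where the plain r was 0.01, 0.14 and -0.02. These are the highest of many values over 12 arrays that share labels and replicate numbers, and are given as a description.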

How the data were processed

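RNA of 12 samples was measured on 12 arrays. The deposited table holds MAS5 intensity values for which the submitters' processing notes name GCOS and MAS5. Versions and scaling are not given in the sources used here. The trimmed mean signal was 150 on each of the 12 arrays, so the deposited values were already scaled to a shared level. Of 22283 probe sets, 68 controls were left out, and of the other 22215, 19065 had 1 symbol in the array annotation, 1043 several and 2107 none; only single symbols were used. A RefSeq lookup altered 0 symbols. These intensity values are the deposited ones, not rescaled further.

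Signals were taken as log2(signal + 16), a scale that compresses low signals. A filter took off the dimmest 40% by mean signal (threshold 36.7), so 13329 probe sets for 8124 genes were tested. Group means were fitted with limma 3.58.1 in R 4.3.3 (lmFit, eBayes with a trend) on all 12 arrays, with 5 contrasts, two-sided tests and Benjamini-Hochberg adjusted p under 0.05. The code was tested on simulated data. Within constructs, same-numbered arrays deviated together (r = 0.85, 0.70 and 0.71 for PAX3-FKHR-ER, 0.79, 0.79 and 0.82 for pK1). The number was thus taken as a pair there, and a block fit is given. Between constructs pairing was not shown for numbers 2 and 3 (r = 0.15 to 0.46), while number 1 deviated together (0.57 and 0.69). Named genes were every member probe set, every gene of the lists called in any contrast of the fit to replicates 2 and 3 with the block, otherwise up to 2 per list with the smallest p, and the 3 genes most like IGF1R and IGFBP5. The same rule for IGF2 could not be applied. The members, lists and tests were chosen with earlier results of these data known. The number of arrays limits the precision. Figures used matplotlib 3.10.9 in Python 3.11.15.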

Additional observations from a re-analysis of the deposited data

How the results depend on the processing

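Of 22 alternatives planned and 5 chosen after seeing the data, all were run: other amounts added, filters and scalings, no trend, the replicate block, replicates 2 and 3 alone, and each array left out in turn. For 4-OHT in PAX3-FKHR-ER cells the count of member probe sets called was 0 over 12 arrays and 0 to 0 when any 1 array was left out; it was 1 with replicates 2 and 3 and the replicate block, and also 1 there after quantile scaling or with 1 or 64 added (IGFBP3 210095_s_at at -1.25, -1.18, -1.65 and -0.72). The block over all 12 arrays left it at 0. The other 4 contrasts gave 0 members in the alternatives run. Of the single probe set values under alternatives, 1718 stayed, 23 moved, 4 passed only under an alternative and 0 reversed. Single-array signals under the filter threshold of 36.7, such as IGFBP3 212143_s_at at 9.98, lie where log2(signal + 16) is compressed. That value is replicate 3 of PAX3-FKHR-ER cells with 4-OHT. The fit to replicates 2 and 3 has 2 residual degrees of freedom.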
